A study of Mus musculus with 5 samples.

Results

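The genes followed here through the cells of the aorta were the scavenger receptors Cd36, Msr1, Mrc1 and Olr1, the Fc gamma receptors Fcgr1, Fcgr2b, Fcgr3 and Fcgr4, and Fcer1g, the signalling chain that the activating Fc receptors share. They were chosen by name, with earlier results of these data known, and all 9 were among the 16498 genes of the deposited table. The table held 18260 single cells in 5 libraries of the aortic arch, taken from the root to the curvature, each from pooled mice kept on normal chow for 28 weeks. There were 2 libraries from Apoe-/- mice, labelled Oasl1+/+Apoe-/-, and 3 from mice labelled Oasl1-/-Apoe-/-, so both groups lacked Apoe and differed by label in Oasl1 alone. By the study's description the Oasl1 deletion was of the whole body and germline, made by removing the promoter and exon 2. On that description every cell type measured here would carry it.

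Scavenger receptors take up modified lipoproteins, dead cells and other polyanionic debris. Cd36 and Msr1 carry oxidized low-density lipoprotein into macrophages and are best known in the artery for their part in foam cell formation, Mrc1 is the mannose receptor and a common marker of resident macrophages, and Olr1 encodes LOX-1, the oxidized lipoprotein receptor first described in endothelium. Fc gamma receptors bind the constant part of IgG. Fcgr1, Fcgr3 and Fcgr4 activate the cell through the tyrosine motif of Fcer1g, whereas Fcgr2b carries its own inhibitory motif.

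By the annotation of mm10 (GRCm38), Fcgr2b, Fcgr4, Fcgr3 and Fcer1g lie in that order on chromosome 1, with 42372, 21412 and 164636 bases between neighbours, while Fcgr1 lies on chromosome 3 (96282909 to 96293969, minus strand). Cd36 (chromosome 5, 17781690 to 17888801), Msr1 (chromosome 8, 39581685 to 39642673) and Olr1 (chromosome 6, 129485244 to 129507165) are on the minus strand and Mrc1 (chromosome 2, 14229392 to 14332057) is on the plus strand. Because a 3′ library reads transcript ends, the last 400 bases of the coding transcripts of the 4 Fc gamma receptors were compared, and no 31-base word was shared between any pair.

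The promoters of Fcgr1 and Fcgr4 are shown because these genes had the largest Fc receptor differences in macrophages. Each is the 250 bases before the start in RefSeq on GRCm38.p6, 5′ to 3′ along the gene, chr3:96293970-96294219 on the minus strand for Fcgr1 and chr1:171018676-171018925 on the plus strand for Fcgr4. Capitals mark, from left to right, the gamma-activated site TTCNNNGAA and the PU.1 word GAGGAAG in Fcgr1, and the paired interferon regulatory factor word GAAANNGAAA and the PU.1 word in Fcgr4, with the PU.1 word on the opposite strand in both.
Fcgr1: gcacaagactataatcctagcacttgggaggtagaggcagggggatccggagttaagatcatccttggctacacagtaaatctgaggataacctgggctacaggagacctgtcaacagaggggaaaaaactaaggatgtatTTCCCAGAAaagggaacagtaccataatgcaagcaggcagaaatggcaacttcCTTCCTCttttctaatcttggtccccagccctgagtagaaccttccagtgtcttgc
Fcgr4: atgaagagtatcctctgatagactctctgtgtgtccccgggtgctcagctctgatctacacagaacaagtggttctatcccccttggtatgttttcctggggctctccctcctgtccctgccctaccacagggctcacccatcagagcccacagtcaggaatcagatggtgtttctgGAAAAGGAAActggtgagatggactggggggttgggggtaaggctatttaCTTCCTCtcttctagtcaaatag
Counted back from the start, the gamma-activated site of Fcgr1 spanned -109 to -101 and the paired word of Fcgr4 spanned -73 to -64. Both strands were searched, and no marked word overlapped another. Promoters were found for 8 of the 9 genes, all but Msr1. Among them the gamma-activated site occurred only in Fcgr1, the paired word only in Fcgr4, and the PU.1 word in Fcgr1, Fcgr3, Fcgr4 and Mrc1. Of 32851 mouse promoters of this length, 7.02% held the first word, 2.98% the second and 10.6% the PU.1 word. These matches describe letters and were not tested as binding sites.

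Cell classes were rebuilt from marker genes, with none of the 9 receptors used for clustering or naming. The classes were 2355 macrophages, 534 monocytes, 404 dendritic cells and 1570 endothelial cells. Macrophages were divided by gates into 375 interferon-high cells, 1035 Gpnmb-positive cells (Gpnmb marks lipid-laden foam cells), 96 resident-like cells and 849 other Gpnmb-negative cells. All 7 macrophage markers were detected in the macrophages, with a summed level of 205 to 248 CP10K (UMIs per 10000 UMIs of a cell, where a UMI is a unique transcript tag) across libraries, against 3.13 to 7.75 CP10K in the endothelial cells. The 6 endothelial markers summed to 48.9 to 50.3 CP10K in endothelial cells. Libraries had 3212 to 4338 cells and medians of 4495 to 5186.5 UMIs per cell, and 165 of 18094 barcodes occurred in more than 1 library. The share of macrophages was 7.06% ± 0.107 (SD, n = 2) with Apoe-/- and 17.9% ± 1.05 (SD, n = 3) in libraries labelled Oasl1-/-Apoe-/-. Oasl1 transcripts did not follow the label: 27 and 16 UMIs were counted for Apoe-/- mice but 299, 257 and 315 UMIs under the label Oasl1-/-Apoe-/-. In macrophages Oasl1 was at 0.056 and 0.076 CP10K against 0.70, 0.58 and 0.67 CP10K. Where the Oasl1 tags lie relative to the deleted part was not checked. Neither the deletion nor the labels were tested here, and every direction below rests on the labels.

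The receptors were found mainly in phagocytes. Macrophages held 74.1% of the Cd36 UMIs of the Apoe-/- libraries and 75.4% of those of the libraries labelled Oasl1-/-Apoe-/-, and for Fcgr4 the shares were 70.8% and 83.5%. Monocytes came second to macrophages for Fcgr2b, with 25.8% and 20.8% of its UMIs. Olr1 was the exception, with fibroblasts holding 24.7% and 50.6% of its UMIs and macrophages 16.5% and 6.06%. Smooth muscle cells, which should lack these receptors and serve here as background, had a UMI of Fcgr1 in 0.112% and 0.324% of cells.

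**Figure D1:**
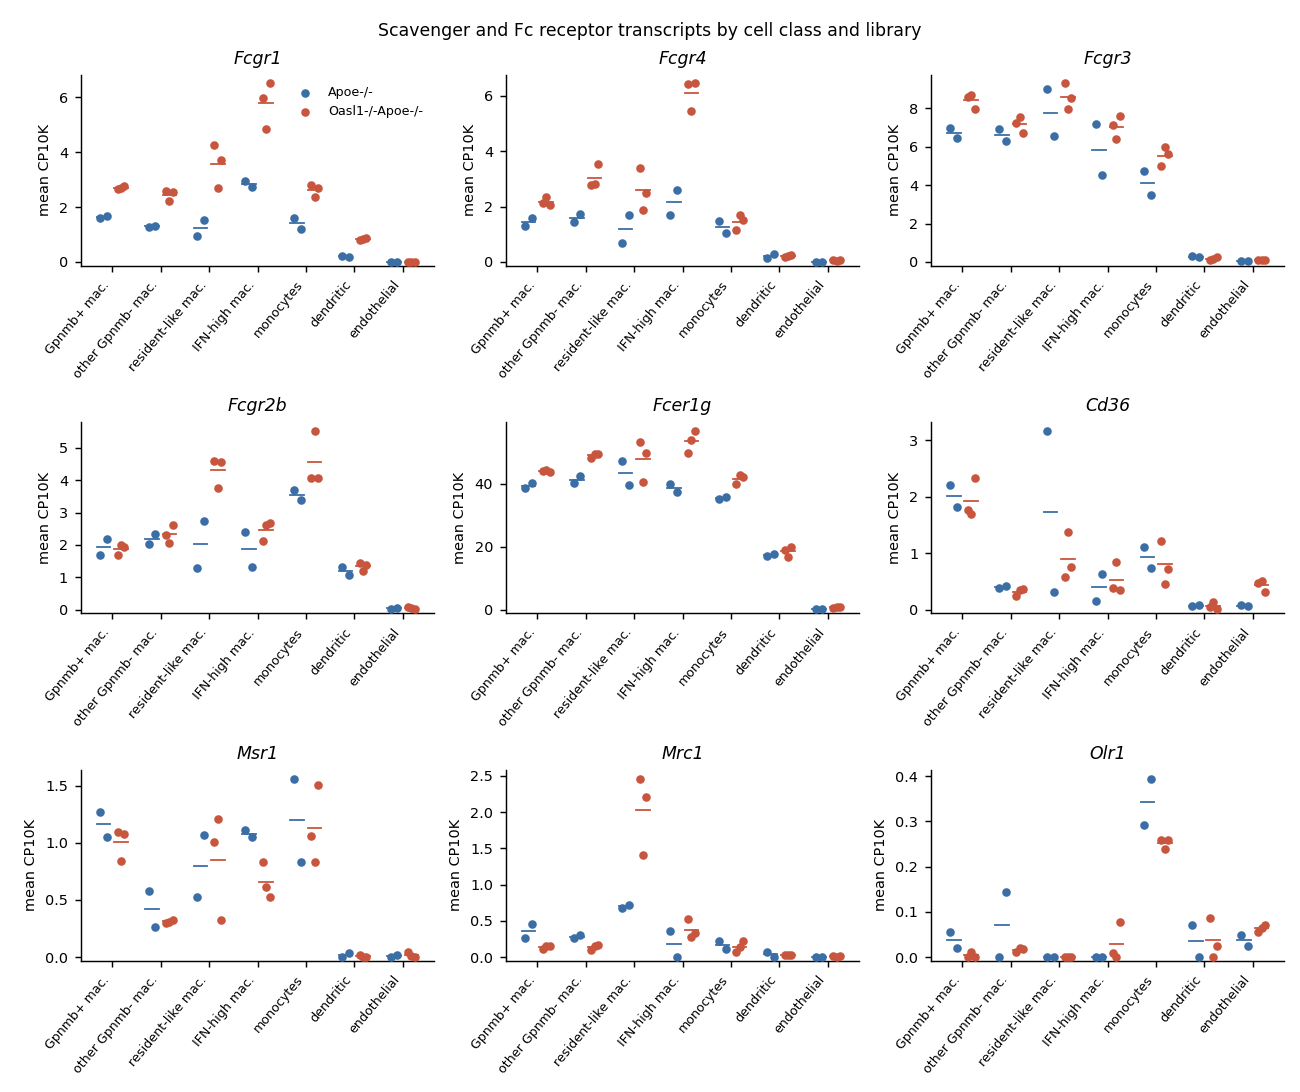
Mean CP10K of each receptor per library (points) and group mean (lines), by cell class and macrophage subtype; each panel has its own linear scale. Fcgr1 points of the libraries labelled Oasl1-/-Apoe-/- lie above both Apoe-/- points in every macrophage subtype, in monocytes and in dendritic cells, while Cd36 is highest in Gpnmb-positive macrophages except for 1 resident-like value of 3.16 and separates by group in endothelial cells.

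The first question was whether macrophages labelled Oasl1-/-Apoe-/- carried different receptor transcripts. Of the 8 receptors tested in the whole macrophage class, Fcgr1, Fcgr4 and Fcer1g rose and Cd36 and Msr1 fell, so 5 passed the limma test (adjusted p under 0.05 over all 7908 genes tested), where 16.8% of all genes did. The groups' libraries did not overlap for 6 of the 8, against 43.4% of all genes. Olr1 was below the filter of a mean of 0.05 CP10K. Differences are in log2(mean CP10K + 0.05), libraries labelled Oasl1-/-Apoe-/- minus Apoe-/- libraries, a scale that understates changes of low genes. The replicates are 2 and 3 libraries of pooled mice. Whether the libraries of a group came from separate pools is not given, so the spread between them may be technical.

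Fcgr1, the high-affinity IgG receptor, had 1.58 and 1.64 CP10K in the macrophages of the Apoe-/- libraries and 3.36, 2.88 and 3.46 CP10K in those labelled Oasl1-/-Apoe-/-. The lowest library of the second group was thus well above the highest of the first. Group means were 1.61 ± 0.0467 (SD, n = 2) and 3.24 ± 0.312 (SD, n = 3) CP10K, and the log2 difference was 0.98 (SE 0.0853, limma adjusted p = 2.4e-06). Cells with an Fcgr1 UMI rose from 55.2% (Wilson 95% interval 51.2 to 59.2) to 67.5% (65.2 to 69.6), and with every cell thinned to 1000 UMIs the shares were 10.8% and 24.1%.

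Fcgr4, an activating receptor for IgG2a and IgG2b, was at 1.33 and 1.66 CP10K against 3.31, 3.06 and 3.54 CP10K in the same macrophages. It too showed no overlap between the groups, with means of 1.49 ± 0.237 (SD, n = 2) and 3.31 ± 0.241 (SD, n = 3) CP10K. Its log2 difference of 1.13 (SE 0.0958, limma adjusted p = 1.9e-06) was the largest among the 8 receptors tested in macrophages. A UMI of Fcgr4 was present in 49.3% (45.3 to 53.3) and 63.4% (61.2 to 65.6) of the macrophages, or in 13.5% and 22.8% after thinning. Shares are over cells and their intervals cover counting error only.

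Fcgr3, the low-affinity activating receptor of most myeloid cells, was at 7.06 and 6.34 CP10K against 7.81, 7.77 and 7.43 CP10K, with a log2 difference of 0.20 and an adjusted p of 0.051 by limma. The groups did not overlap, and whether the difference passed depended on the setting: it did with summed UMIs (0.24, limma adjusted p = 0.017), voom weights (0.24), a replicate block (0.22), the other 2 clustering resolutions (0.23 and 0.20) and without Apoe-/- replicate 1 (0.27), among others. Fcer1g was at 39.3 and 40.5 CP10K against 47.0, 48.0 and 48.9 CP10K, a small increase of 0.26 (SE 0.0468, limma adjusted p = 0.0014) that all 3 libraries showed. The inhibitory Fcgr2b was at 1.79 and 2.20 CP10K against 2.10, 2.23 and 2.48 CP10K. Here the groups overlapped and the difference of 0.19 did not pass (limma adjusted p = 0.22), although it did without Apoe-/- replicate 2 (0.33, limma adjusted p = 0.019) and with the unnamed low-UMI and cycling macrophage clusters added (0.40, limma adjusted p = 0.018), a cell set chosen after the data were seen.

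Both scavenger receptors that passed went the other way. Cd36 had 1.70 and 1.38 CP10K in Apoe-/- macrophages and 0.859, 0.952 and 1.07 CP10K in those labelled Oasl1-/-Apoe-/-, a log2 difference of -0.65 (SE 0.112, limma adjusted p = 0.0011). Msr1 was at 1.07 and 0.862 CP10K against 0.736, 0.596 and 0.632 CP10K, with a difference of -0.53 (SE 0.119, limma adjusted p = 0.0074). The groups overlapped for neither of them. Cells with a Cd36 UMI numbered 36.2% (32.4 to 40.1) against 24.5% (22.6 to 26.6) of macrophages, and 10.9% against 7.18% after thinning. Mrc1 was at 0.281 and 0.402 CP10K against 0.275, 0.239 and 0.282 CP10K and did not pass (difference -0.30, limma adjusted p = 0.22). It passed with summed UMIs (-0.51), with voom weights (-0.59) and without Apoe-/- replicate 1 (-0.52), and was -0.07 without Apoe-/- replicate 2. For Olr1 the macrophage levels were 0.0372 and 0.0485 CP10K against 0.00655, 0.0128 and 0.0224 CP10K, from 16 and 14 UMIs in all, and no test was made.

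**Figure D2:**
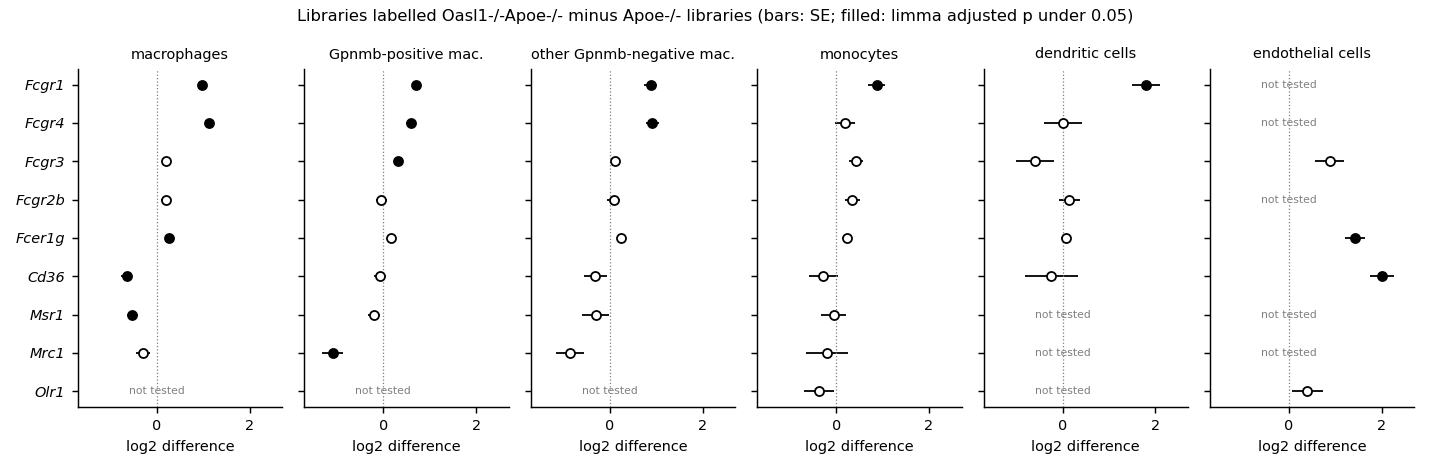
Log2 difference of each receptor in 6 cell classes, libraries labelled Oasl1-/-Apoe-/- minus Apoe-/- libraries, with SE as bars; filled points passed the limma threshold and genes below the filter are marked as not tested. Fcgr1 is filled in the 5 myeloid panels, and Cd36 is filled below 0 in macrophages (-0.65) and above 0 in endothelial cells (2.01).

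The makeup of the macrophages also differed between the groups. Values by subtype are given below, and the part of makeup in the results of the whole class was not tested. Gpnmb-positive cells were 68.2% ± 0.671 (SD, n = 2) of Apoe-/- macrophages against 35.8% ± 1.83 (SD, n = 3) of macrophages labelled Oasl1-/-Apoe-/-, and interferon-high cells were 5.23% ± 0.864 and 19.5% ± 1.52. The 7 foamy macrophage markers, all detected, summed to 193 and 198 CP10K against 109 to 116 CP10K. Gates were set on interferon genes and Gpnmb, genes that themselves differ between the groups. There were 126 macrophages within 8 to 12.5 CP10K, near the interferon gate of 10 CP10K. The interferon gate came first, so interferon-high cells with a Gpnmb UMI were not counted as Gpnmb-positive. Of all cells of a library, Gpnmb-positive macrophages were 4.813% on average with Apoe-/- and 6.397% in libraries labelled Oasl1-/-Apoe-/-. Their lower share of macrophages was thus not a lower share of all cells.

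Within Gpnmb-positive macrophages (405 and 630 cells) Fcgr1, Fcgr3 and Fcgr4 rose and Mrc1 fell, 4 of 8 tested where 6.39% of all 7796 genes passed. Libraries of the groups did not overlap for 5 of the 8, and for 33.5% of all genes. Fcgr1 was at 1.59 and 1.69 CP10K against 2.64, 2.71 and 2.78 CP10K (log2 difference 0.71, limma adjusted p = 9.0e-05). Fcgr4 rose by 0.59 (limma adjusted p = 0.0024), from 1.29 and 1.57 CP10K to 2.12, 2.33 and 2.05 CP10K, but with cells thinned to 1000 UMIs its difference was 0.0607 and did not pass (limma adjusted p = 0.97), with a UMI in 14.3% and 15.1% of the thinned cells. Fcgr3 rose by 0.32 (limma adjusted p = 0.015), from 6.99 and 6.47 CP10K to 8.62, 8.72 and 7.98 CP10K, although it missed the threshold without Apoe-/- replicate 2 (0.27) and without replicate 1 (0.31) or 2 (0.30) labelled Oasl1-/-Apoe-/-.

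Cd36 did not separate in these cells. It was at 2.21 and 1.81 CP10K against 1.76, 1.69 and 2.33 CP10K, so the highest and the lowest library both carried the Oasl1-/-Apoe-/- label, and the difference was -0.07 (limma adjusted p = 0.86). Msr1 was at 1.27 and 1.05 CP10K against 1.10, 0.843 and 1.08 CP10K, a difference of -0.20 (limma adjusted p = 0.48). Mrc1, by contrast, was at 0.261 and 0.453 CP10K against 0.115, 0.148 and 0.146 CP10K, a difference of -1.09 (SE 0.218, limma adjusted p = 0.0045) that became -0.75 and missed the threshold without Apoe-/- replicate 2. Fcgr2b (-0.04) and Fcer1g (0.16) did not pass.

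Among the other Gpnmb-negative macrophages (141 and 708 cells) Fcgr1 and Fcgr4 rose, 2 of 8 tested, where 2.49% of all genes passed. No overlap was seen for 5 of the 8 receptors and for 34.1% of all genes. Fcgr1 was at 1.29 and 1.32 CP10K against 2.57, 2.22 and 2.54 CP10K (log2 difference 0.88, limma adjusted p = 0.0034), and Fcgr4 was at 1.45 and 1.73 CP10K against 2.79, 2.80 and 3.54 CP10K (0.92, limma adjusted p = 0.0049). Without replicate 1 or 3 labelled Oasl1-/-Apoe-/- neither passed, with adjusted p from 0.0502 to 0.0723. Cd36 was low in both groups of these cells, at 0.385 and 0.418 CP10K against 0.246, 0.346 and 0.362 CP10K. The groups did not overlap, but the Cd36 difference of -0.31 did not pass (limma adjusted p = 0.56).

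Given equal weight, Gpnmb-positive and other Gpnmb-negative macrophages together gave a Cd36 difference of -0.11 and an Msr1 difference of -0.23 (limma adjusted p = 0.70 and 0.40), while Fcgr1 (0.79), Fcgr4 (0.77), Fcer1g (0.21) and Mrc1 (-0.98) passed. Within the cluster led by Gpnmb and Lpl alone, a cell set chosen after the data were seen, Cd36 was at 2.47 and 1.89 CP10K against 2.12, 2.24 and 2.72 CP10K, a difference of 0.12. In the cluster led by Cd72 and Fcrls, also chosen then, it was at 0.523 and 0.523 CP10K against 0.280, 0.423 and 0.329 CP10K (-0.56, limma adjusted p = 0.11). Cd36 was thus higher in the Gpnmb and Lpl cluster than in the Cd72 and Fcrls cluster in all 5 libraries. The difference between the 2 gated subtypes in their group effect was tested directly over 7380 genes, and no gene passed by limma, with 775 at an unadjusted p under 0.05.

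**Figure D3:**
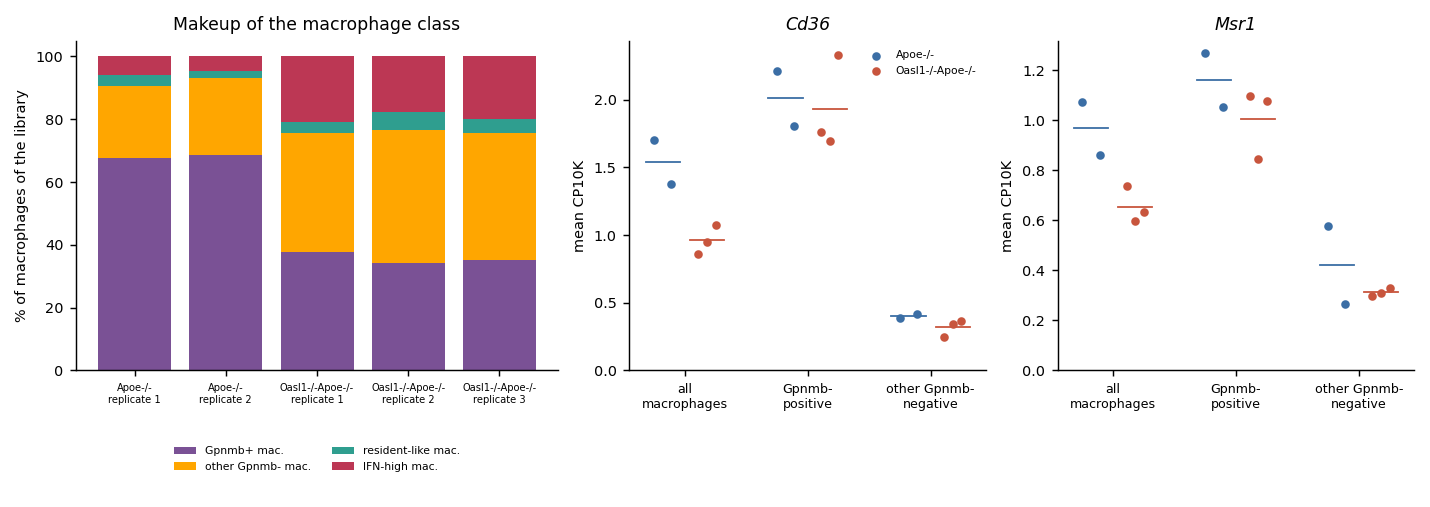
Left, share of each macrophage subtype in the macrophages of every library (stacked to 100%); middle and right, mean CP10K of Cd36 and Msr1 per library (points) with group means (lines), on axes from 0. Gpnmb-positive cells are 68.2% of Apoe-/- macrophages and 35.8% of macrophages labelled Oasl1-/-Apoe-/- on average. The groups separate in all macrophages but overlap for both genes within Gpnmb-positive cells.

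The remaining subtypes had too few cells in some libraries for a test, 17 and 79 resident-like cells and 31 and 344 interferon-high cells in the 2 groups. In interferon-high macrophages Fcgr1 was at 2.96 and 2.73 CP10K against 5.97, 4.85 and 6.50 CP10K, and Fcgr4 was at 1.70 and 2.60 CP10K against 6.42, 5.46 and 6.44 CP10K. Both receptors had their highest group mean here among the macrophage subtypes of the libraries labelled Oasl1-/-Apoe-/-. Mrc1 in resident-like cells was at 0.680 and 0.724 CP10K against 2.46, 1.40 and 2.21 CP10K, the opposite order to that in Gpnmb-positive cells. Fcgr2b in resident-like cells was at 1.30 and 2.73 CP10K against 4.59, 3.76 and 4.57 CP10K. These few cells carry no replicate test, and the resident-like value of Cd36 in Apoe-/- replicate 1, 3.16 CP10K against 0.302 CP10K in replicate 2, shows how far they scattered.

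Monocytes are the circulating precursors of lesional macrophages. One of the 9 receptors tested rose in them, Fcgr1, where 3.76% of all 7662 genes passed and the libraries of 5 receptors and of 30.6% of all genes did not overlap. Fcgr1 was at 1.61 and 1.21 CP10K against 2.80, 2.37 and 2.69 CP10K (log2 difference 0.88, SE 0.182, limma adjusted p = 0.0059), and without Apoe-/- replicate 2 the difference was 0.68 and did not pass (limma adjusted p = 0.15). Fcgr4 was at 1.48 and 1.06 CP10K against 1.16, 1.68 and 1.50 CP10K, with overlap and a difference of 0.18 (limma adjusted p = 0.79). Fcgr2b was at 3.71 and 3.38 CP10K against 4.07, 5.53 and 4.06 CP10K and did not pass (0.34, limma adjusted p = 0.34). Within each group its monocyte level was above the macrophage level, with no overlap between the libraries. Olr1, at 0.292 and 0.395 CP10K against 0.259, 0.239 and 0.259 CP10K, also did not pass (-0.37, limma adjusted p = 0.70), nor did Cd36 (-0.27) or Msr1 (-0.06). Fcgr3 was at 3.50 to 4.75 CP10K against 4.98 to 6.00 CP10K, without overlap. Its difference of 0.43 did not pass, but it did with summed UMIs (0.63, limma adjusted p = 0.0088) and voom weights (0.63, limma adjusted p = 0.0097). Fcer1g, at 35.15 to 35.84 CP10K against 39.84 to 42.68 CP10K, also showed no overlap and did not pass (0.22). The 6 monocyte markers, all detected, summed to 33.0 and 28.8 CP10K against 56.4 to 63.5 CP10K in these cells, and the 7 foamy macrophage markers to 53.2 and 62.9 CP10K against 96.8 to 116 CP10K. The part of these in the Fcgr1 result was not tested.

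Dendritic cells had low levels of most receptors, and 6 of the 9 passed the filter. Fcgr1 rose, the single receptor to do so, where 1.81% of all 7588 genes passed; no overlap was seen for 2 of the 6 and for 27.4% of all genes. Its level was 0.210 and 0.197 CP10K against 0.800, 0.822 and 0.859 CP10K, with a log2 difference of 1.79 (SE 0.297, limma adjusted p = 0.0011). The values rest on 14 and 105 UMIs, in 7.43% (4.20 to 12.8) and 22.3% (17.6 to 27.7) of the cells. At a finer clustering, made at resolution 2, Fcgr1 lay almost wholly in the part led by Cd209a, which held 3 monocyte and 3 dendritic markers and so stayed unnamed, at 0.268 and 0.224 CP10K against 0.964, 0.984 and 0.937 CP10K, while in the part led by Ccr7, which marks migratory dendritic cells, it was listed at 0 in 4 libraries and was at 0.360 CP10K in the other. Fcgr4 (0.01), Fcgr2b (0.15), Fcgr3 (-0.59), Cd36 (-0.24) and Fcer1g (0.08) did not pass. The monocyte markers summed to 11.1 and 12.4 CP10K against 29.0 to 34.5 CP10K in the dendritic class and the macrophage markers to 5.83 and 6.39 CP10K against 4.51 to 5.26 CP10K, and their part in the Fcgr1 result was not tested.

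The myeloid effects were then compared with each other. Fcgr4 had a difference of 1.13 in macrophages and 0.18 in monocytes, yet the test of macrophages minus monocytes over 7176 genes gave 0.94 (SE 0.358) with a limma adjusted p of 0.48. Against dendritic cells the value was 1.12 (SE 0.381, limma adjusted p = 0.45) and for Fcgr1 it was -0.81 (SE 0.338, limma adjusted p = 0.50). No gene passed in either contrast by limma, with 701 of 7176 and 689 of 6923 genes at an unadjusted p under 0.05. The effects on Fcgr1 and Fcgr4 were thus not shown to differ between these myeloid classes.

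The balance of activating to inhibitory receptors was taken as log2 of the summed Fcgr1, Fcgr3 and Fcgr4 UMIs over the Fcgr2b UMIs. It was 2.55 and 2.23 in Apoe-/- macrophages and 2.95, 2.74 and 2.63 in those labelled Oasl1-/-Apoe-/-, all 3 above both Apoe-/- libraries, a difference of 0.39. An exact two-sided permutation test gave p = 0.2 (adjusted p = 0.3 over 3 classes), and 0.2 is the smallest p that this two-sided test allows with 2 against 3 libraries. The groups overlapped in monocytes (0.84 ± 0.154 SD, n = 2, against 0.94 ± 0.230 SD, n = 3). In dendritic cells the ratio was below 0 in every library, at -1.04 and -0.51 against -0.41, -0.10 and -0.18, so that Fcgr2b UMIs outnumbered the activating ones. The ratio counts transcript tags and says nothing of protein.

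**Figure D4:**
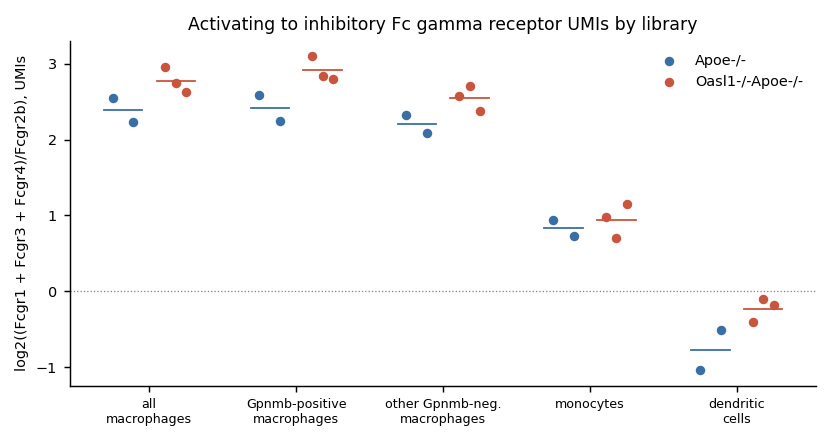
Log2 ratio of activating (Fcgr1, Fcgr3 and Fcgr4) to inhibitory (Fcgr2b) Fc gamma receptor UMIs per library (points) with group means (lines) in 5 cell classes; the dotted line marks equal UMIs. Values run from about 2 to 3 in macrophages, near 0.8 to 0.9 on average in monocytes, and below 0 in dendritic cells.

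Endothelial cells showed the opposite Cd36 result. Cd36, which in capillary endothelium takes up long-chain fatty acids, rose, and so did Fcer1g. They were 2 of the 4 receptors tested, where 3.89% of all 9562 genes passed. No overlap was seen for all 4 and for 29.0% of all genes. However, Olr1 (0.0370 against 0.0638 CP10K) and Fcgr3 (0.0400 against 0.115 CP10K) reached the filter of 0.05 CP10K only through the second group. Their lack of overlap therefore carries no weight. Of the receptors below the filter, Msr1, Mrc1, Fcgr1 and Fcgr2b overlapped and Fcgr4 did not. Cd36 was at 0.0749 and 0.0596 CP10K against 0.470, 0.503 and 0.315 CP10K, with a log2 difference of 2.01 (SE 0.258, limma adjusted p = 7.9e-07). The effect in macrophages minus that in endothelial cells was -2.66 (SE 0.287, limma adjusted p = 0.036), one of 8 genes to pass among 7189 (0.111%).

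Few endothelial cells carried the transcript. A Cd36 UMI was found in 4 and 5 Apoe-/- cells per library (12 and 8 UMIs) and in 8, 10 and 8 cells of those labelled Oasl1-/-Apoe-/- (55, 41 and 35 UMIs), that is in 9 of 818 cells or 1.10% (0.580 to 2.08) and in 26 of 752 cells or 3.46% (2.37 to 5.02). The smooth muscle background was 0.225% and 0.399%. Of the 26 cells 24 lay in the smaller endothelial cluster, led by Nts and Gpihbp1, and 76.9% had a UMI of Gpihbp1, the capillary endothelial protein that holds lipoprotein lipase, while 92.3% had one of Fabp4, a fatty acid-binding protein. Cd36 in that cluster was at 0.137 and 0.506 CP10K against 2.04, 1.72 and 1.33 CP10K, and in the larger cluster, led by Ptprb, it was at 0.0676 and 0.00469 CP10K against 0, 0.0259 and 0 CP10K.

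Gpihbp1 itself was listed at 0 in both Apoe-/- libraries and was at 0.761, 0.820 and 0.924 CP10K in the endothelial cells labelled Oasl1-/-Apoe-/-, where 36 cells had a UMI. Those 36 cells held all but 12 of the 131 Cd36 UMIs of that group. The Nts and Gpihbp1 cluster was 10.8% ± 0.271 (SD, n = 2) of Apoe-/- endothelial cells against 24.9% ± 2.79 (SD, n = 3) of the others, and its leading genes differ between the groups. Lymphatic markers also moved, at 0.168 and 0.235 CP10K against 4.71 to 11.2 CP10K summed over 4 markers, none at 0 throughout. Without the 29 cells with UMIs of at least 2 of these markers the Cd36 difference was 2.03 and passed (limma adjusted p = 2.8e-07). Cells with fewer of the markers detected stayed in, so the part of lymphatic cells in the Cd36 result was not tested.

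**Figure D5:**
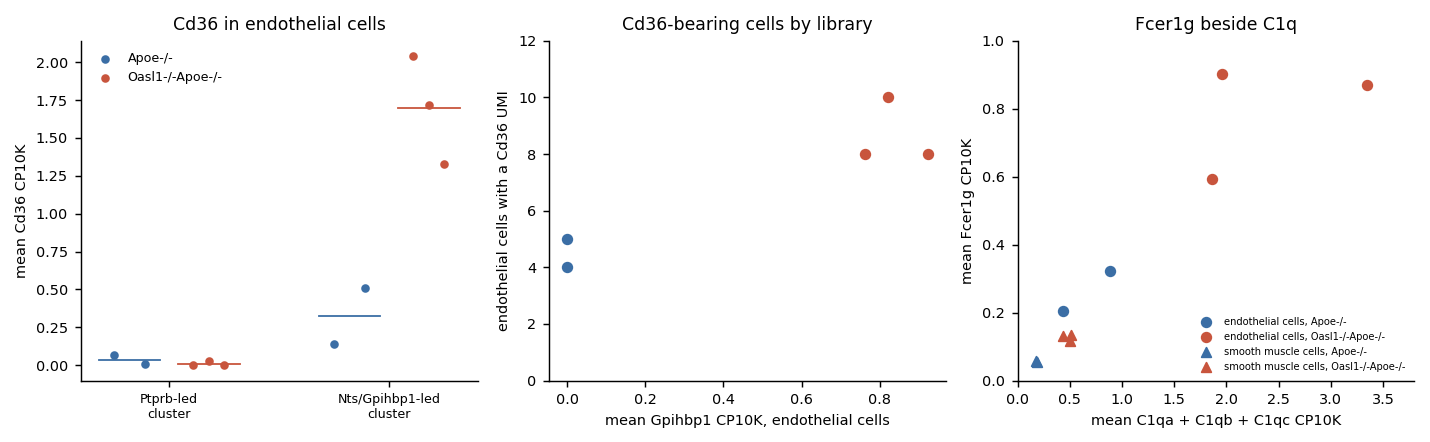
Left, mean Cd36 CP10K per library (points, group means as lines) in both endothelial clusters; middle, number of endothelial cells with a Cd36 UMI against mean Gpihbp1 CP10K, 1 point a library; right, mean Fcer1g against summed C1q CP10K in endothelial and smooth muscle cells. Cd36 reaches 0.137 to 2.04 CP10K in the Nts and Gpihbp1 cluster and at most 0.0676 CP10K in the Ptprb cluster, both Apoe-/- libraries sit at a Gpihbp1 level of 0, and in each cell class the libraries labelled Oasl1-/-Apoe-/- are above the Apoe-/- libraries in both Fcer1g and C1q.

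Fcer1g was at 0.206 and 0.322 CP10K in endothelial cells of the Apoe-/- libraries and at 0.594, 0.870 and 0.901 CP10K in the others (log2 difference 1.42, SE 0.208, limma adjusted p = 9.2e-06). The C1q transcripts, macrophage markers here, were also higher in the same cells, at 0.438 and 0.884 CP10K against 1.86, 3.35 and 1.96 CP10K summed over C1qa, C1qb and C1qc. Endothelial cells with a C1q UMI, 71 of 818 and 186 of 752, were then left out, also a choice made after the data were seen. This takes a larger share of cells from the libraries labelled Oasl1-/-Apoe-/-. In the remaining cells Fcer1g was at 0.0940 and 0.104 CP10K against 0.120, 0.145 and 0.602 CP10K and did not pass (0.90, limma adjusted p = 0.33). Cd36 passed in them (limma adjusted p = 3.2e-05). With voom weights in all endothelial cells Fcer1g did not pass (0.71). By cluster, Fcer1g was at 0.0338 and 0.118 CP10K against 0.334, 0.402 and 0.401 CP10K in the Ptprb cluster (1.85, limma adjusted p = 2.7e-05) and at 1.66 and 1.98 CP10K against 1.47, 2.07 and 2.52 CP10K in the Nts and Gpihbp1 cluster (0.11, limma adjusted p = 0.90). Per 100 C1q UMIs there were 39.2 and 32.8 Fcer1g UMIs in endothelium, 31.8 and 27.8 in smooth muscle and 22.6 and 22.1 in macrophages. For Cd36 there were 5.85 and 16.7 UMIs in endothelial cells and 1.10 and 0.661 in macrophages. The source of the Fcer1g and Cd36 UMIs in endothelial cells was not tested. Fcgr3 (0.88) and Olr1 (0.40) did not pass in endothelial cells (limma adjusted p = 0.14 and 0.69).

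Across all cells of the aortic arch together, all 8 receptors tested rose, where 41.1% of 9836 genes passed. The log2 differences ran from 0.37 for Mrc1 to 1.74 for Fcgr1. More cells of a type and a higher level per cell cannot be told apart in such a mean over all cells. With the same share of each cell type in every library, Cd36 (-0.21), Msr1 (-0.22) and Mrc1 (-0.17) turned negative and did not pass, whereas Fcgr1 (0.87), Fcgr4 (0.85), Fcgr2b (0.28), Fcgr3 (0.23) and Fcer1g (0.23) stayed past the threshold.

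Genes around the receptors were described from lists, which were also chosen with earlier results of these data known. Of 20 other scavenger receptors 8 were tested in macrophages, and Axl (0.58), a receptor for dying cells, and Cxcl16 (0.35), the transmembrane chemokine that binds oxidized lipoprotein, rose, while Lrp1 (-0.57), Mertk (-0.51), Cd68 (-0.37) and Scarb2 (-0.30) fell. The median of the list was -0.25, against -0.01 over all genes, of which 16.8% passed. In endothelial cells, where 3.89% of all genes passed, 1 of 12 rose, Scarb1 (1.26, limma adjusted p = 0.00058), the high-density lipoprotein receptor. None of the 3 other Fc receptors tested in macrophages passed by limma. All 3 had an unadjusted p under 0.05, as did 2298 of all 7908 genes tested there.

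Downstream of the Fc receptors, 20 genes of ITAM and ITIM signalling were tested in macrophages. Of these 3 were higher and 2 lower past the threshold, where 16.8% of all 7908 genes passed. Among those that rose were the phosphatase Ptpn6 (0.50), which acts from inhibitory motifs, and the adaptor Dok1 (0.57), and Syk (-0.42), the kinase recruited by Fcer1g, and the adaptor Blnk (-0.30) fell, with a list median of 0.06. Of 5 other receptors that couple to Fcer1g, Clec4b1 rose (1.49) and Clec4e (Mincle) fell (-0.42). In monocytes Clec4n (Dectin-2) rose from 3.54 to 11.7 CP10K on average, a difference of 1.70 (limma adjusted p = 2.3e-08). It was the 1 gene of 5 in that list to pass there, where 3.76% of all genes passed. No gene of the ITAM and ITIM list passed there or in dendritic cells by limma. An unadjusted p under 0.05 was found for 2 of 20 in monocytes, beside 1066 of all 7662 genes. In dendritic cells it was found for 2 of 19, beside 887 of all 7588 genes.

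Of 15 tested partners and regulators of Cd36, 3 were higher and 5 lower in macrophages, where 16.8% of all genes passed. The largest falls were in fatty acid-binding proteins. In macrophages Fabp4 fell from 4.43 to 0.696 CP10K on average (-2.59, limma adjusted p = 2.1e-08) and Fabp5 fell from 56.9 to 15.3 CP10K (-1.88), and Lpl (-0.77), Nr1h3 (-0.68) and Rxra (-0.62), the last 2 forming the liver X receptor pair, fell as well. Cd81 (0.43), Acsl1 (0.47) and Fyn (0.50) rose. Fabp4 (-1.92) and Fabp5 (-1.19) also fell within Gpnmb-positive macrophages, in which Cd36 did not change beyond the spread. Endothelial cells had the other sign for Fabp4, which rose by 1.67 (limma adjusted p = 2.1e-15) beside Lpl (1.20) and Cd9 (0.33), while Fabp5 fell (-0.78).

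Interferon-stimulated genes were the most uniform list, with 12 of 12 higher in macrophages (median 2.01) and 9 of 12 in Gpnmb-positive macrophages. In monocytes 10 of 12 were higher, in dendritic cells 8 of 12 and in endothelial cells 9 of 12, with none lower in any class. In the same order of classes, 677 of 7908, 280 of 7796, 151 of 7662, 98 of 7588 and 254 of 9562 genes were higher over all tested. Fcgr1 rose in each of the 3 myeloid classes, and without interferon-high macrophages its macrophage difference was 0.74 and that of Fcgr4 was 0.83, both past the threshold. The part of the interferon genes in the receptor results was not tested.

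Likeness over 45 values, 9 classes in 5 libraries, is given as a description over 9604 genes, since the values share libraries and cell types. The gene most like Fcgr3 was Fcgr4 (Pearson r = 0.963), and for Fcer1g it was Tyrobp (0.965), the other ITAM chain of myeloid cells. Fcgr1 followed Csf1r (0.948), Msr1 followed Pf4 (0.972), Mrc1 followed Gdf3 (0.963), Fcgr2b followed Gm6377 (0.919), Cd36 followed C1qc (0.879) and Olr1 followed Nfkbia (0.872). The next likest genes were Pilra and Cd14 for Fcgr3, Lyz2 and Cd68 for Fcgr4, Ptpro and Clec4a3 for Fcgr1, Lilr4b and Adam8 for Fcer1g, and Pld4 and Rassf4 for Fcgr2b. On the scavenger side they were C1qa and Nceh1 for Cd36, Tmem37 and Gdf3 for Msr1, Tbxas1 and Tmem37 for Mrc1, and Hp and Prdx5 for Olr1.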

How the data were processed

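Single cells of the aortic arch were measured on the 10x Chromium 3′ platform in 5 libraries of pooled mice (n = 6), 2 Apoe-/- and 3 labelled Oasl1-/-Apoe-/-. The authors aligned the reads to mm10 with Cell Ranger 3.1.0, kept cells with over 200 genes and under 10% mitochondrial reads, removed doublets with DoubletFinder and normalized with Seurat 4.0.3. Values were deposited as the natural log of UMIs per 10000 UMIs of a cell, after adding 1, and whole UMIs came back from 100% of the nonzero values within a tolerance of 0.01. The deposited cells are fewer than the study states, no cell annotation was used here, and a gene listed at 0 in a library may have been under a minimum number of cells.

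Cells were clustered anew (2000 variable genes without the 9 receptors, 12 components, 20 neighbours, leidenalg 0.10.2 at resolution 1) and clusters were named from marker lists, with at least 3 markers, so names may differ from those of the study. Macrophages were then gated in turn as interferon-high (10 CP10K or more over 6 interferon genes), Gpnmb-positive (1 UMI or more), resident-like (2 UMIs or more of resident genes) and other. No doublet caller was run again. Mean CP10K was taken per library and class, with at least 20 cells in every library, and log2(mean CP10K + 0.05) was compared between groups with limma 3.58.1 in R 4.3.3 (trended empirical Bayes) over genes with a mean of 0.05 CP10K or more. P-values were adjusted over all genes by the Benjamini-Hochberg method, with 0.05 as the threshold, and the fits were tested on simulated data. Whether libraries of a group came from separate pools is not given in the sources used here, so p-values measure only the spread between libraries, which may be technical. Libraries held 16959976 to 19813039 UMIs.

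The named genes were the 9 receptors, genes of the 6 pathway lists that passed (some are not reported here), and the 3 genes with the highest correlation to each receptor. The members and lists were chosen with earlier results of these data known. Same-numbered libraries were not paired. Alternatives covered normalization, pseudocount, filter, depth, gates, clustering, makeup and each library left out.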

Additional observations from a re-analysis of the deposited data

Results flagged for a closer look

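The group effect on Cd36 went in opposite directions in 2 cell classes, and this difference between classes passed a test of its own. Macrophages labelled Oasl1-/-Apoe-/- had less Cd36 than Apoe-/- macrophages (-0.65 on the log2 scale, lower in 3 of 3 libraries) and endothelial cells had more (2.01, higher in 3 of 3 libraries), so that the macrophage effect minus the endothelial effect was -2.66 (SE 0.287, limma adjusted p = 0.036). The endothelial side rests on 9 and 26 cells with a Cd36 UMI, of which 24 of the 26 lay in the smaller endothelial cluster. The macrophage side did not pass when Gpnmb-positive and other Gpnmb-negative macrophages were weighted equally (-0.11). No other receptor had an effect that passed such a test between classes. Between macrophages and endothelial cells, however, only Fcgr3 and Fcer1g were tested besides Cd36, and Olr1 was tested in no contrast.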

How the results depend on the processing

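Of 840 alternative values of single receptors 736 kept their direction and their side of the threshold; of the 384 that belong to receptors past the threshold 349 did, 31 lost the call and 4 turned, namely Cd36 in the macrophage cluster led by Gpnmb and Lpl (0.12) and, with the same cell shares in every library, whole-aorta Cd36 (-0.21), Msr1 (-0.22) and Mrc1 (-0.17). Fcgr1 (0.66 to 1.29) and Fcgr4 (0.41 to 1.36) passed in macrophages under all 20 alternatives. Restrictions to 1 cluster or to cells without a Gpihbp1 or C1q UMI, and the omission of lymphatic cells, were chosen after seeing the data. The number of libraries and shallow counts both limit the results. Thinned to 1000 UMIs, genes past the threshold numbered 533 in macrophages, 48 in monocytes, 15 in dendritic cells, 143 in endothelial cells, 111 in Gpnmb-positive and 20 in other Gpnmb-negative macrophages and 2580 in the whole aorta, and receptors numbered 0 in monocytes, dendritic, endothelial and other Gpnmb-negative cells by limma and 1 in Gpnmb-positive cells; Fcgr1 then missed the threshold in monocytes (1.12) and dendritic cells (2.38), as did Cd36 (1.45) and Fcer1g (1.01) in endothelial cells, and the signs of Msr1 (0.0842), Olr1 (0.34) and Cd36 (0.98) in monocytes, Cd36 (0.54) and Fcgr4 (-0.29) in dendritic cells, and Cd36 (0.46) and Msr1 (0.18) in other Gpnmb-negative macrophages turned. The cause of these and the following changes was not tested. Summed UMIs gave 464 genes and 2 receptors in monocytes and 560 genes in endothelial cells, and turned Msr1 (0.27) and Fcgr4 (-0.19) in monocytes, Fcer1g in dendritic cells (-0.001) and Cd36 in Gpnmb-positive macrophages (0.038). With voom weights 2 receptors passed in monocytes and 1 in endothelial cells, and Cd36 in Gpnmb-positive macrophages (0.048) and Fcgr4 (-0.21) and Msr1 (0.24) in monocytes turned. Without a filter 120 genes passed in other Gpnmb-negative macrophages, 181 in endothelial cells and 190 in monocytes. Other signs that turned were Cd36 in Gpnmb-positive macrophages at resolution 0.5 (0.0228), Fcgr2b there with an interferon gate of 20 CP10K (0.0073), and Fcgr4 in dendritic cells with the median shifted to 0 (-0.0561) or a pseudocount of 0.5 (-0.0125). The cluster led by Cd72 and Fcrls alone gave 476 genes and 3 receptors (Mrc1 0.28), the cluster led by Gpnmb and Lpl 396 genes (Fcgr2b -0.0733), the Nts and Gpihbp1 cluster 1 receptor (Olr1 -0.14), the Ptprb cluster 148 genes and 1 receptor, and endothelial cells without a C1q UMI 1 receptor. Leaving out cells with a Gpihbp1 UMI also left 1 receptor, but takes cells from the libraries labelled Oasl1-/-Apoe-/- alone and so says nothing of Cd36. Equal subtype weights gave 536 genes in macrophages, and the same cell shares gave 1015 genes and 5 receptors in the whole aorta. With 1 library left out, where a lone Apoe-/- library is assumed to vary like the others, genes past the threshold ranged from 845 to 1485 in macrophages, 124 to 240 in monocytes, 67 to 129 in dendritic cells, 214 to 307 in endothelial cells, 261 to 437 in Gpnmb-positive and 51 to 1769 in other Gpnmb-negative macrophages, and receptors from 5 to 7 in macrophages, 0 to 1 in monocytes, 2 to 4 in Gpnmb-positive and 0 to 4 in other Gpnmb-negative macrophages. The signs that turned then were those of Cd36 (-0.21 to 0.0762) and Fcgr2b (-0.23 to 0.15) in Gpnmb-positive macrophages, Fcgr2b (-0.0114 to 0.19) and Msr1 (-0.79 to 0.19) in other Gpnmb-negative macrophages, Cd36 (-0.28 to 0.13) and Fcgr4 (-0.46 to 0.47) in dendritic cells, Cd36 (-0.61 to 0.0512), Fcgr4 (-0.049 to 0.41), Mrc1 (-0.55 to 0.16) and Msr1 (-0.49 to 0.38) in monocytes, and the monocyte ratio of activating to inhibitory receptors (-0.00186 to 0.229). The deviations of same-numbered libraries correlated at -0.071 to 0.043, so the numbers were not taken as pairs; a replicate block gave 1253 genes and 6 receptors in macrophages, 373 and 1 in monocytes, 119 and 1 in dendritic cells, 382 and 2 in endothelial cells, 660 and 5 in Gpnmb-positive macrophages, 172 and 2 in other Gpnmb-negative macrophages and 3017 and 7 in the whole aorta, and under the block Cd36 (0.13) and Fcgr4 (-0.11) in dendritic cells and Fcgr2b in other Gpnmb-negative macrophages (-0.0001) turned. Not run for want of cells were monocytes at resolution 0.5, dendritic cells at resolution 2, and tests in resident-like and interferon-high macrophages.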

Other observations

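Several classes outside the comparisons carried the receptors. Neutrophils had Fcer1g at 59.8 and 51.2 CP10K in the Apoe-/- libraries and at 45.4, 35.2 and 39.2 CP10K in those labelled Oasl1-/-Apoe-/-, the reverse of the order in macrophages and monocytes, and Fcgr3 at 2.18 and 6.41 CP10K against 5.43, 5.36 and 5.11 CP10K; these values were not tested. Olr1 was also found in neutrophils, at 0.267 and 0.726 CP10K against 0.601, 1.13 and 0.269 CP10K, with wide overlap. These values rest on only 2 and 6 UMIs in the 42 and 72 neutrophils of the groups. Median depth was 776.5 and 1254 UMIs per neutrophil. B cells, in which Fcgr2b is the main Fc gamma receptor, had it at 1.13 and 0.497 CP10K against 0.786, 0.0648 and 0 CP10K. This rests on 10 and 4 UMIs in 81 and 49 B cells. Fcgr1, Fcgr3 and Fcgr4 were listed at 0 in B cells of all 5 libraries. Fibroblasts had Olr1 at 0.0786 and 0.136 CP10K against 0.226, 0.110 and 0.0984 CP10K.

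Among macrophage-like cells left unnamed, a cluster of 696 cells with low UMI counts had Fcgr4 at 1.87 and 2.28 CP10K against 3.88, 3.11 and 2.52 CP10K and Cd36 at 1.32 and 1.30 CP10K against 1.49, 1.86 and 1.40 CP10K. Cd36 there had the opposite order to that in the macrophage class. A cluster of 158 cycling cells had Fcgr1 at 1.23 and 0.855 CP10K against 2.76, 2.38 and 2.08 CP10K and Fcgr4 at 0.867 and 1.01 CP10K against 1.72, 2.18 and 1.71 CP10K, again with no overlap between the groups and no test.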
